A study of Bos taurus with 12 samples.

Results

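The enzymes that make long-chain fatty acids and insert double bonds into them were followed from bovine myoblasts to myotubes, in mRNA level and in N6-methyladenosine (m6A). The set was fixed by name as 8 genes, *ACLY*, *ACACA*, *FASN*, *ELOVL6*, *ELOVL5*, *SCD*, *FADS1* and *FADS2*, of 18436 genes with expression values, and all 8 were among the 12302 genes that passed the filter of a mean of at least 0.5 FPKM, a read density scaled to exon length and library size. The cells were primary myoblasts of newborn Qinchuan cattle, isolated from the longissimus dorsi, and the methods speak of a single newborn, so that the cultures may share their donor. GM denotes proliferating myoblasts taken at 80% confluence in DMEM/F12 with 20% fetal bovine serum, and DM denotes myotubes after 4 days in DMEM/F12 with 2% horse serum. Medium, serum, cell density and time in culture changed together and cannot be told apart. Each group had 3 cultures, sequenced as input RNA and after m6A immunoprecipitation (IP), which makes 12 libraries.

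Fatty acid synthesis starts in the cytosol, where ATP citrate lyase (*ACLY*) splits citrate to acetyl-CoA and acetyl-CoA carboxylase alpha (*ACACA*) turns it into malonyl-CoA, the committed step. Fatty acid synthase (*FASN*) then builds palmitate, the elongases *ELOVL6* and *ELOVL5* lengthen saturated and polyunsaturated chains, and the desaturases *SCD*, *FADS1* and *FADS2* place double bonds at the delta-9, delta-5 and delta-6 positions. In muscle these products enter the phospholipids of the sarcolemma and the sarcoplasmic reticulum and the intramuscular triglyceride that gives beef its marbling. The sterol-responsive factors SREBP1 and SREBP2, encoded by *SREBF1* and *SREBF2*, are textbook activators of this pathway and of cholesterol synthesis.

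The input libraries summed to between 415740 and 434458 FPKM in GM and between 386436 and 390827 in DM, and r of the log2 values across genes was 0.991 to 0.996 between libraries of a group. Of 14 muscle markers 6 rose and 5 fell (8 and 4 under TPM, 8 and 5 with size factors, the 2 scalings described below). *MEF2C*, *MYH3*, *CKM*, *TNNT1*, *MYF6* and *MYOG* rose, and *MYF5*, *MYOD1*, *PAX7*, *CDH15* and the sarcomeric actin *ACTA1* fell, the last of these from a mean of 110.2 to 69.96 FPKM (log2 -0.64). The fusion genes *MYMK* and *MYMX* did not pass, and *MYOG*, an early differentiation factor, already stood at 190 to 207 FPKM in GM. All 4 proliferation markers fell, from a summed 63.5 to 72.2 FPKM in GM to 4.37 to 6.51 in DM. Fibroblast markers were abundant in both groups (10 of 10 tested, summed 16378 to 16496 FPKM in GM and 17139 to 18224 in DM), with 5 that rose and 1 that fell. Of 8 adipocyte markers with values, *ADIPOQ*, *CIDEC*, *LEP*, *FABP4* and *LPL* stayed under 1 FPKM in every library, and the list summed to 4.08 to 4.20 FPKM in GM and 3.97 to 4.43 in DM. Endothelial and blood markers summed to 1.23 to 1.81 FPKM in GM and 1.29 to 2.26 in DM, and liver and mammary markers to 1.95 to 2.08 and 1.47 to 2.23. The part of fibroblasts in the results below was not tested, and in bulk RNA fewer cells of a type and less RNA per cell cannot be told apart.

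Among the 8 enzymes, *SCD*, *ELOVL5* and *FADS1* rose in DM, *ACACA* fell slightly, and *ACLY*, *FASN*, *ELOVL6* and *FADS2* did not pass the test. A gene rose or fell where its adjusted p was under 0.05 in limma on log2(FPKM + 1), with Benjamini-Hochberg adjustment over all 12302 genes. By that call 42.8% of all tested genes changed, 16.1% upwards and 26.7% downwards. The FPKM of GM and DM libraries did not overlap in 54.1% of all tested genes. By the study's criteria, an unadjusted p under 0.05 with a fold change over 1.5, *SCD* and *ELOVL5* were higher and no enzyme was lower, against 4.90% of all tested genes higher, 6.97% lower and 11.9% in either direction. The median log2 fold change was -0.02 over the 8 enzymes and -0.05 over all tested genes. The p-values measure the spread between these cultures only.

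**Figure D1:**
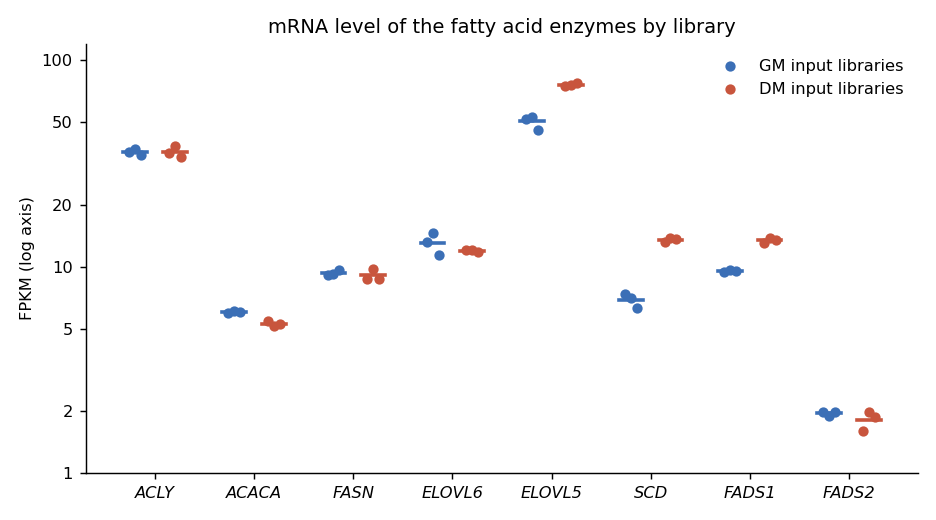
FPKM of the 8 enzymes in each input library (dots; bars, group means; logarithmic axis), ordered from acetyl-CoA supply to desaturation. The DM libraries of *ELOVL5*, *SCD* and *FADS1* lie above all GM libraries, those of *ACACA* lie below, and the groups of the other 4 enzymes overlap. Of all tested genes, 54.1% had groups that did not overlap.

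The enzymes of acetyl-CoA and malonyl-CoA supply were close to level. *ACLY* (ENSBTAG00000016740, chr19:42049435-42093855, minus strand, ARS-UCD1.2) was at 35.8, 37.2 and 34.9 FPKM in GM and 35.6, 38.6 and 34.0 in DM. The groups overlapped, with means of 36.0 ± 1.14 and 36.1 ± 2.33 (SD, n = 3), and the 95% interval of the log2 difference ran from -0.13 to 0.14. *ACACA* (ENSBTAG00000017567, chr19:13441162-13726679, minus strand) was at 5.93, 6.13 and 6.02 FPKM in GM and 5.43, 5.18 and 5.25 in DM. Every DM library lay below every GM library, and the mean fell from 6.02 ± 0.0999 to 5.28 ± 0.128, which is 0.877 of the GM level (log2 -0.16, SE 0.056, adjusted p = 0.048 in limma). That call of *ACACA* was close to the threshold and was lost in 10 of 14 alternatives, whose adjusted p reached 0.51 after rescaling to TPM, which gives every library the same sum.

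*FASN* (ENSBTAG00000015980, chr19:50775674-50796012, plus strand), the enzyme that joins malonyl units into palmitate, was at 9.13, 9.22 and 9.58 FPKM in GM and 8.73, 9.74 and 8.73 in DM. The highest and the lowest of these libraries were both DM libraries, so the groups overlapped. Their means were 9.31 ± 0.235 and 9.06 ± 0.583, a ratio of 0.973, and the 95% interval of the log2 difference of *FASN* was -0.18 to 0.11 with an adjusted p of 0.67. A 1.5-fold change in either direction lay outside that interval.

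The 2 elongases differed. *ELOVL6* (ENSBTAG00000010564, chr6:15199666-15360477, plus strand), which takes palmitate to stearate, was at 13.2, 14.6 and 11.4 FPKM in GM and 12.1, 12.1 and 11.7 in DM. The lowest and the highest values were both GM libraries, and the log2 difference was -0.11 (95% interval -0.30 to 0.08, adjusted p = 0.32). Without GM replicate 3 it was -0.20 with an adjusted p of 0.032, so that 1 library decided the call. *ELOVL5* (ENSBTAG00000003359, chr23:25400733-25474020, minus strand), which lengthens polyunsaturated chains, was at 52.2, 53.3 and 46.2 FPKM in GM and 75.3, 75.7 and 77.7 in DM. All DM libraries lay above all GM libraries, and the mean rose 1.51-fold from 50.5 ± 3.82 to 76.2 ± 1.27 (log2 0.59, SE 0.062, adjusted p = 1.5e-04). Its fold change only just met the study's criteria and did not without GM replicate 3 or without DM replicate 3, while its adjusted p stayed under 0.05 in all 14 alternatives.

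Of the desaturases, *SCD* and *FADS1* rose and *FADS2* did not pass the test. *SCD* (ENSBTAG00000055207, chr26:21263727-21279185, plus strand), which turns stearate into oleate, was at 7.39, 7.04 and 6.27 FPKM in GM and 13.1, 13.7 and 13.5 in DM. The groups were far apart, and the mean rose 1.95-fold from 6.90 ± 0.573 to 13.5 ± 0.327 (log2 0.87, SE 0.067, 95% interval 0.72 to 1.03, adjusted p = 2.6e-05). This change of *SCD* exceeded that of 97.4% of the tested genes, and it passed both calls in 14 of 14 alternatives, at log2 0.81 to 1.05.

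*FADS1* (ENSBTAG00000022294, chr29:40244038-40351218, minus strand), the delta-5 desaturase of arachidonate synthesis, was at 9.40, 9.65 and 9.50 FPKM in GM and 13.0, 13.8 and 13.5 in DM. No DM library of *FADS1* came near the GM range, and the mean rose 1.41-fold from 9.52 ± 0.128 to 13.5 ± 0.405 (log2 0.46, SE 0.052, adjusted p = 2.2e-04). It met the study's criteria in 1 alternative, TPM. *FADS2* (ENSBTAG00000015505, chr29:40350389-40387558, plus strand), the delta-6 desaturase that acts before *FADS1* in the same route, was the lowest of the 8 enzymes, at 1.98, 1.88 and 1.98 FPKM in GM and 1.60, 1.97 and 1.86 in DM. The groups overlapped, and the log2 difference of *FADS2* was -0.07 (95% interval -0.25 to 0.11, adjusted p = 0.49). The 2 genes stand head to head, and their annotated spans share 830 bases on opposite strands (chr29:40350389-40351218). The libraries kept strand, but whether the FPKM used it is not given in the sources used here, so reads of that stretch may count for either gene.

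**Figure D2:**
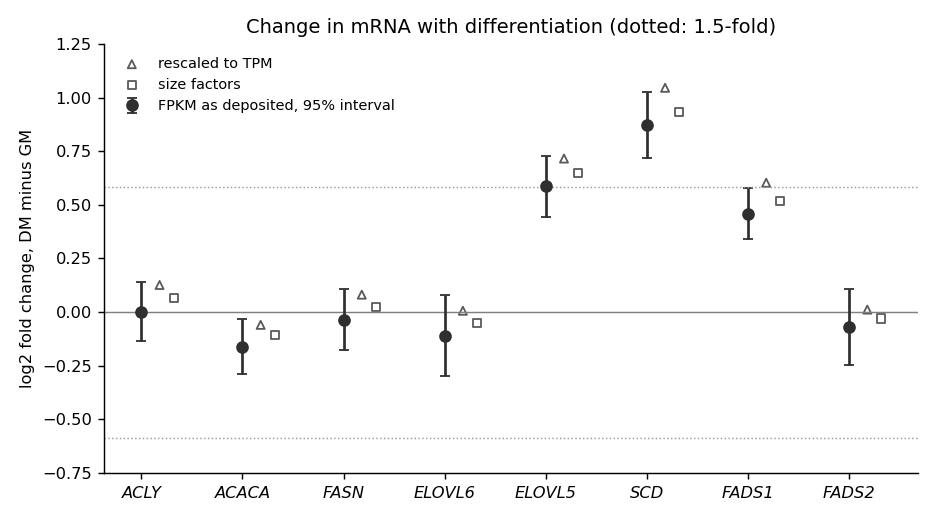
Log2 fold change in mRNA (DM minus GM) of each enzyme with its 95% interval from limma on FPKM as deposited (filled dots), and the estimates after rescaling to TPM (triangles) and with size factors (squares); dotted lines mark 1.5-fold. *SCD*, *ELOVL5* and *FADS1* stay clear of 0 under all 3 scalings, and *FASN*, *ELOVL6* and *FADS2* move across it.

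The direction of *FASN*, *ELOVL6* and *FADS2* depended on scale. Rescaling to TPM moved the median of all tested genes from -0.05 to 0.06, and the share of called genes that were higher in DM from 37.6% to 59.5% (49.0% with size factors). Under TPM *FASN* was at log2 0.081, *ELOVL6* at 0.0061 and *FADS2* at 0.011, and with size factors *FASN* was at 0.022, none with an adjusted p under 0.05.

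FPKM is scaled per length, so levels can be set against each other between genes. In GM the order was *ELOVL5*, *ACLY*, *ELOVL6*, *FADS1*, *FASN*, *SCD*, *ACACA* and *FADS2*, and of neighbours only *FADS1* and *FASN* overlapped in range. In DM *FADS1* came before *ELOVL6*, and *SCD* before *ELOVL6* and *FASN*. The ranges of *FADS1* and *SCD* overlapped there, and the other neighbours did not overlap. By mean level over the 6 libraries, *ELOVL5* stood at percentile 92.3 of the tested genes, *ACLY* at 85.7, *ELOVL6* at 62.6, *FADS1* at 60.3, *SCD* at 57.0, *FASN* at 53.8, *ACACA* at 39.6 and *FADS2* at 16.2.

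Ratios within a library do not depend on how that library was scaled. For each of 4 ratios the 3 GM and the 3 DM values did not overlap, the most extreme of 20 splits, so that the two-sided exact permutation p was 0.1 for each, the smallest that 3 against 3 samples allow, and 0.1 after Benjamini-Hochberg adjustment over the 4. Groups that do not overlap were found for 54.1% of all tested genes taken singly, and no such share was computed for ratios. The ratio of *SCD* to *FASN* FPKM was 0.809, 0.763 and 0.655 in GM and 1.5, 1.41 and 1.55 in DM. *SCD* mRNA was thus below *FASN* mRNA in each GM library and above it in each DM library. The log2 difference in ratio was 1.01 (SE 0.10), and the numerator, *SCD*, was the member that rose. The ratio of *FADS2* to *FADS1* was 0.211, 0.195 and 0.208 in GM and 0.123, 0.142 and 0.137 in DM (log2 difference -0.61, SE 0.074). That of *ELOVL6* to *ELOVL5* was 0.253, 0.273 and 0.247 in GM and 0.161, 0.160 and 0.151 in DM (log2 difference -0.71, SE 0.052). In both pairs the DM libraries were the lower ones, and the denominators, *FADS1* and *ELOVL5*, were the members that rose. The ratio of *ACLY* to *ACACA* moved least, from 6.04, 6.07 and 5.80 in GM to 6.56, 7.45 and 6.47 in DM (log2 difference 0.19, SE 0.068).

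m6A is the most abundant internal modification of mRNA and is read by proteins that affect splicing, translation and decay. The deposited peaks were called on the pooled libraries of each group, so a peak has 1 fold enrichment (IP over input) per group, with no error and no test. There were 19739 GM and 20790 DM peaks. Of the 8 enzymes, 4 had a peak in GM and 5 in DM, against 70.9% and 78.7% of all tested genes. The enzymes held 6 GM peaks and 7 DM peaks, all with a false discovery rate under 0.001. *SCD* and *ELOVL5*, which rose most in mRNA, and *ACACA* had none in either list.

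Peaks were paired where exactly 1 GM and 1 DM peak overlapped, which gave 10239 pairs, 25.0% of them past 1.5-fold, 14.2% higher and 10.8% lower in DM. The enzymes had 4 such pairs, of which 2 were past 1.5-fold, 1 in each direction. In the 3′UTR of *FASN* the GM peak (chr19:50794544-50795563, 1020 bases, plus strand) had a fold enrichment of 14.2, and the DM peak (chr19:50794514-50796012, 1499 bases) had 7.45. The DM value was the lower one, at a log2 ratio of -0.93, which lay at percentile 5.36 of all pairs. The DM peak held the whole GM peak and ran on to the annotated end of the gene. Among the peaks of its list this site of *FASN* stood at percentile 96.9 in GM and 84.8 in DM.

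*FADS2* had peaks at both ends of its mRNA. At the 3′ end the GM peak (chr29:40387110-40387319, 210 bases, plus strand) had a fold enrichment of 2.44, and the DM peak (chr29:40387080-40387558, 479 bases) had 17.0. The log2 ratio of 2.80 ranked 14 of 10239 from the top. The mRNA behind it was scarce, at a mean of 1.95 FPKM in GM and 1.81 in DM, and the GM peak had the weakest false discovery rate of the enzymes' peaks (log10 -3.44). The DM peak was longer than the GM peak by more than the length of that peak, so the 2 were no pair when at least 50% of both had to overlap. In the 5′UTR, within the stretch shared with *FADS1*, the GM peak of *FADS2* (chr29:40350389-40350718, 330 bases) had 7.89 and the DM peak (chr29:40350389-40350628, 240 bases) had 6.60, a log2 ratio of -0.26 that did not reach 1.5-fold.

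**Figure D3:**
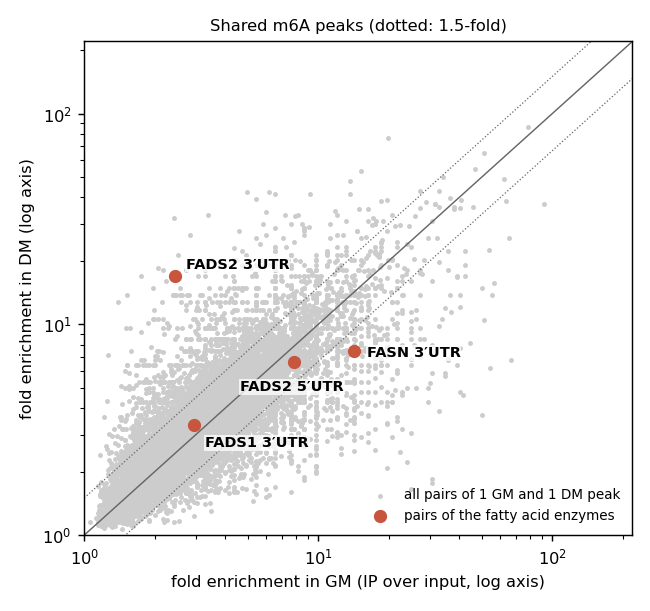
Fold enrichment of m6A (IP over input) in DM against GM for the 10239 peak pairs (grey) and the 4 pairs of the enzymes (red), on logarithmic axes; the solid line is equality and dotted lines mark 1.5-fold. The *FADS2* 3′UTR pair (2.44 and 17.0) lies far above the band and the *FASN* pair (14.2 and 7.45) below it, while the other 2 lie within.

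The 3′UTR peak of *FADS1* had 2.95 in GM (chr29:40244098-40244217, 120 bases, minus strand) and 3.32 in DM (chr29:40244038-40244277, 240 bases), a log2 ratio of 0.17. A minus-strand peak of an unnamed gene (ENSBTAG00000053898, chr29:40240470-40245387, 2.74 in GM and 3.11 in DM) spans this site, and its 3 exon blocks share 0 bases with the peaks of *FADS1*. To which gene the reads there belong was not tested. A further DM peak of *FADS1* (chr29:40246009-40246069, 61 bases, 1.53) had no GM counterpart. *ACLY* had a peak in DM alone, at the end of its 3′UTR (chr19:42049435-42049705, 271 bases, 2.42), which was not called in GM. *ELOVL6* had 2 GM peaks, 1 in the 5′UTR (chr6:15228595-15228865, 271 bases, 2.42) and 1 in the 3′UTR (chr6:15358232-15358861, 630 bases, 2.34), both covered by a single DM peak of 5 exon blocks (chr6:15199666-15359040, 1797 bases, 3.80), so no ratio could be formed. An unnamed gene (ENSBTAG00000038368) lies on the opposite strand within the span of *ELOVL6*.

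**Figure D4:**
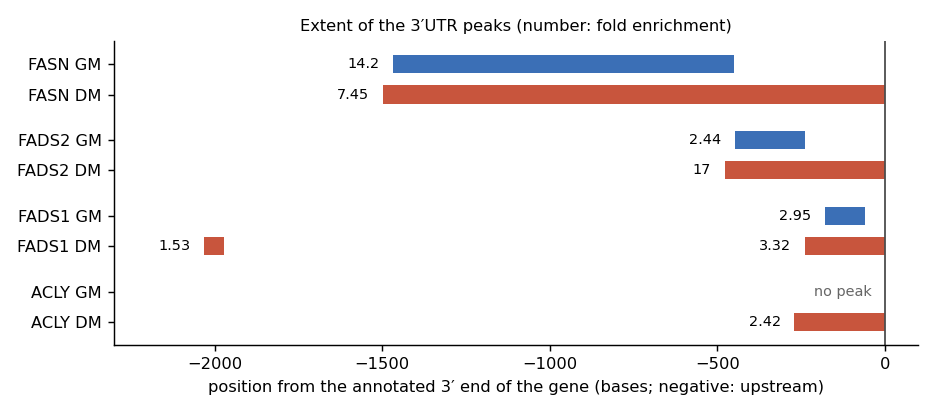
Extent of the 3′UTR peaks of *FASN*, *FADS2*, *FADS1* and *ACLY* in GM (blue) and DM (red), as bases from the annotated 3′ end of the gene; the number at each bar is its fold enrichment. In each of these genes a DM peak reaches the annotated end and the GM peak, where there is one, stops short of it. *ELOVL6* is not drawn, and its DM peak ended 1437 bases before the annotated end. Peak ends were not compared over all pairs.

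In the paired 3′UTR peaks of *FASN*, *FADS2* and *FADS1* the DM peak was the longer one. The downstream edge of the GM peak lay 449 bases before the annotated end in *FASN*, 239 bases in *FADS2* and 60 bases in *FADS1*, and that of the DM peak at 0 bases in each. For *FASN* the lower DM enrichment thus went with a longer peak, and for *FADS2* the higher one did. Other peaks differed. The further DM peak of *FADS1* (61 bases) ended 1971 bases before the annotated end and the DM peak of *ELOVL6* 1437 bases before it. In the 5′UTR of *FADS2* the GM peak was the longer one (330 against 240 bases). Peak lengths and peak ends were not compared over all pairs.

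Genes that surround these enzymes in lipid metabolism were taken from 11 lists, of which 124 of 135 genes had values and 114 were tested. Of the 114, 30 rose and 33 fell (37 and 24 under TPM, 33 and 30 with size factors), and 25 met the study's criteria, 19 higher and 6 lower. Of all tested genes 16.1% rose and 26.7% fell, and by the study's criteria 4.90% were higher and 6.97% lower. Sterol synthesis alone held 14 of the 30 genes that rose and 12 of the 19 that were higher. Lists are described by their counts and medians, with no test of a list.

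In acetyl-CoA and NADPH supply 2 of 9 genes rose and 5 fell (median log2 -0.29, and -0.16 under TPM). The 2 that rose were not called in 6 of 13 and 8 of 14 alternatives. *MDH1*, the cytosolic malate dehydrogenase that passes reducing power towards NADPH, fell from 51.0, 52.4 and 55.0 FPKM to 31.1, 30.0 and 34.7 (log2 -0.71, adjusted p = 6.6e-05). The DM values of *MDH1* all lay below the GM values. Among 4 malonyl-CoA and acyl carrier genes 1 rose, *MLYCD*, whose product degrades malonyl-CoA (log2 0.29, not called without DM replicate 1). Of 6 mitochondrial fatty acid synthesis genes none rose and 2 fell (1 and 1 under TPM and with size factors). The largest change was that of the acyl carrier *NDUFAB1* (log2 -0.41), and the other fall was not called in 8 of 14 alternatives.

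In the elongation cycle 2 of 10 genes rose and 1 fell (2 and 0 under TPM), with a median log2 fold change of 0.01. *ELOVL7*, an elongase of saturated very long chains, was at 18.7, 20.9 and 15.4 FPKM in GM and 37.3, 33.6 and 39.4 in DM (log2 0.97, adjusted p = 1.9e-04). Its DM libraries lay clear above the GM range, as they did in *ELOVL5*. Of 9 desaturase relatives and electron donors none rose (1 under TPM and with size factors) and 3 fell. The largest change was in *FADS3*, a front-end desaturase of the same family as *FADS1* and *FADS2*, which went from 133, 132 and 138 FPKM in GM to 98.3, 108 and 96.2 in DM (log2 -0.41, adjusted p = 7.2e-04). *FADS3* thus fell where *FADS1* rose, and in both groups its level was above that of *FADS1*. Of 5 acyl-CoA synthetases 1 rose and 1 fell (2 and 1 under TPM and with size factors), the largest change being in *ACSL5* (log2 -0.51). The gene that rose was not called in 5 of 14 alternatives.

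Of 15 regulators of lipogenesis 3 rose and 2 fell (4 and 1 under TPM, 3 and 1 with size factors). *SREBF1*, the SREBP gene tied to fatty acid synthesis, was at 4.90, 4.97 and 4.80 FPKM in GM and 4.86, 4.76 and 3.77 in DM (log2 -0.11, adjusted p = 0.33). Its groups overlapped. *SREBF2*, tied to sterol synthesis, was at 12.2, 12.1 and 11.5 FPKM in GM and 24.0, 26.3 and 23.9 in DM, without overlap (log2 0.99, adjusted p = 5.7e-06). *INSIG1*, a sterol-regulated retention factor of SREBP, rose from 2.07, 2.53 and 2.19 FPKM to 5.52, 5.06 and 4.51 (log2 0.89, adjusted p = 1.0e-04). *MLXIPL*, the carbohydrate-response factor ChREBP, rose (log2 0.63), and *PPARG*, the adipogenic receptor, fell (log2 -0.60) from at most 1.34 FPKM in GM.

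Sterol synthesis, the other branch of the SREBP programme, stood apart in its values. There 14 of 17 tested genes rose and 1 fell (16 and 0 under TPM), with a median log2 fold change of 1.01 against -0.02 for the 8 fatty acid enzymes. Of these calls, 1 rise was lost in 6 of 14 alternatives and the 1 fall in 4 of 14. *SQLE*, squalene epoxidase, was at 6.91, 7.23 and 6.08 FPKM in GM and 35.0, 39.3 and 33.5 in DM (log2 2.25). *IDI1*, isopentenyl diphosphate isomerase (log2 2.04), *CYP51A1*, lanosterol demethylase (log2 1.75), and *HMGCS1*, HMG-CoA synthase (log2 1.65), followed. Of the fatty acid enzymes *SCD*, at log2 0.87, came nearest to these sterol genes, and *FASN*, *ACACA* and *ACLY* lay between -0.16 and 0.00.

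**Figure D5:**
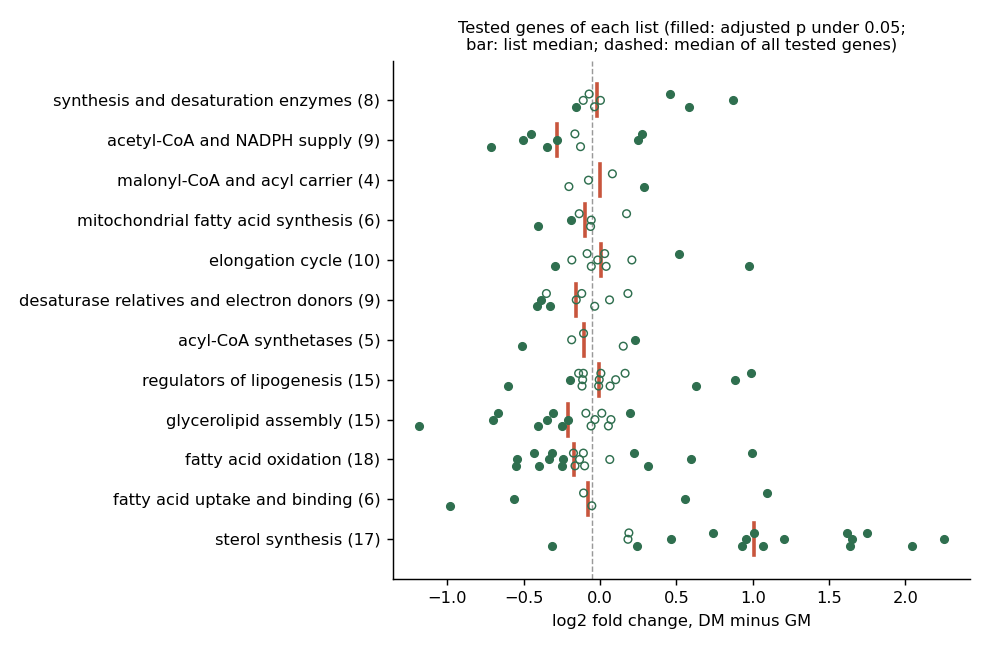
Log2 fold change (DM minus GM) of every tested gene of the 8 enzymes and of 11 lists, numbers of genes in brackets; filled dots have an adjusted p under 0.05 (limma, Benjamini-Hochberg), red bars are list medians and the dashed line is the median of all tested genes (-0.05). Sterol synthesis lies to the right (median 1.01), while the medians of the other groups lie between -0.29 and 0.01.

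The mRNAs of genes for glycerolipid assembly and for fatty acid oxidation and uptake moved in both directions. In glycerolipid assembly 1 of 15 genes rose, which was not called in 7 of 14 alternatives. There 8 fell (1 rose and 5 fell under TPM, 1 and 7 with size factors), led by acyltransferases that remodel phospholipids. *MBOAT1* fell from 11.1, 11.8 and 9.37 FPKM to 4.56, 3.93 and 4.00 (log2 -1.18, adjusted p = 2.6e-05), *LPCAT1* by 0.70 and *LPCAT3* by 0.67 on the log2 scale. In fatty acid oxidation 4 of 18 genes rose and 8 fell (5 and 6 under TPM). *CPT1A*, the carnitine palmitoyltransferase that malonyl-CoA inhibits, was at 11.0, 11.9 and 11.1 FPKM in GM and 23.5, 23.2 and 24.0 in DM (log2 1.00, adjusted p = 3.5e-06). Its muscle form *CPT1B* rose too (log2 0.60) from under 1 FPKM. Of 6 uptake and binding genes 2 rose and 2 fell. Among these the heart-type fatty acid binding protein *FABP3* fell (log2 -0.98).

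By the smallest root mean square difference between deviations of log2(FPKM + 1) over the 6 inputs, the genes of 5365 (mean of at least 10 FPKM) whose pattern was most like that of *FASN* were *ELOVL1* (0.016), *GNG5* (0.017) and *DLG5* (0.020), which hardly moved. For *SCD* they were *ADK* (0.033), which went from a mean of 22.1 to 41.8 FPKM, *C1QTNF5* (0.045) and *LTBP1* (0.047). This likeness is a description over 6 libraries of 2 groups.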

How the data were processed

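Poly(A) RNA of 12 libraries was fragmented, and part was immunoprecipitated with an m6A antibody. The authors trimmed reads with Trimmomatic (the submitters' processing notes name cutadapt and fastp) and aligned them with HISAT2 to ARS-UCD1.2. The deposited FPKM per gene were made by the authors with StringTie for the 6 inputs. The deposited peak lists came from exomePeak on the pooled libraries of a group, with ChIPseeker annotation. They hold the authors' fold enrichment (IP over input), an unadjusted p-value, and log10 of that p and of the false discovery rate. The study gives read totals per library. Read counts per gene and per peak were not analysed here, so the reads behind an FPKM or a peak are unknown, and limma took the place of the study's edgeR.

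FPKM was tested with limma 3.58.1 in R 4.3.3 (variance trend) on log2(FPKM + 1), keeping genes whose mean reached 0.5 FPKM, 3 DM against 3 GM inputs. Fold changes on that scale understate those of low genes. Peaks were paired in Python 3.11.15 (pandas 2.3.3) by overlap of at least 1 exonic base on the same strand. Ratios had exact permutation tests (scipy 1.17.1). Deviations from the group mean had r of -0.08, -0.12 and -0.21 between same-numbered GM and DM libraries, and -0.06 to 0.19 between the others. Whether the cultures were derived in pairs cannot be told from these values, and the main fit was unpaired. On simulated data for DM against GM (12302 genes), 82.1% of genes changed 1.5-fold were recovered, with 13 false calls. For 2-fold and 3-fold changes 95.5% and 98.5% were recovered. The changed genes were drawn from those with a mean log2(FPKM + 1) over 2, so these shares do not cover lower genes such as *FADS2*. Far fewer genes were changed there than were called in the data.

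Named besides the 8 enzymes were, per list, up to the 4 largest changes with an adjusted p under 0.05 and a fold over 1.5, otherwise the largest change, and the 3 genes most like *FASN* and *SCD*. *SREBF1*, *MYOG* and the markers were named in addition, and 1 gene that the rule names is not reported here. Members and lists were chosen with earlier results of these data known. Alternatives covered pseudocounts, filters, TPM, size factors, the replicate block, the variance trend, left-out libraries, thresholds and peak rules. Sequence motifs and proteins were not analysed here.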

Additional observations from a re-analysis of the deposited data

How the results depend on the processing

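*SCD*, *ELOVL5* and *FADS1* kept their direction and an adjusted p under 0.05 (limma) in 14 of 14 alternatives each. *ACACA* kept its direction, at log2 -0.19 to -0.06, and lost its call in 10 of 14, with an adjusted p of 0.060 without the FPKM filter, 0.16 with size factors, 0.51 under TPM and 0.073 to 0.127 with 1 library left out. Reversed were *FASN* under TPM (0.081) and size factors (0.022), *ELOVL6* (0.0061) and *FADS2* (0.011) under TPM, and *ACLY*, whose values with 1 library left out ran from -0.046 to 0.043 (-0.00056, -0.018 and -0.046 without GM replicate 1, GM replicate 3 and DM replicate 2). The number of enzymes that met the study's criteria was 1 to 2 with 1 library left out and 0 at a fold over 2, where 507 of all genes and 11 list genes met them against 1461 and 25. With the replicate block 3 enzymes passed the adjusted p in place of 4 (*ACACA*, 0.13), 58 list genes in place of 63 and 4513 of all genes in place of 5268. The blocked ratios had the same differences, with an exact sign permutation p of 0.25, the smallest for 3 pairs, and the block changed no other call of an enzyme. Of the enzymes' peak pairs, 1 in place of 2 was past the threshold when 50% of both peaks had to overlap and at a ratio over 2, where 1029 in place of 2562 of all pairs passed. Pooled peaks give no replicate error. The study reports the reads of each library, and the immunoprecipitated library with the fewest was a GM library and that with the most a DM library. An effect of depth on the peaks was not tested, and the reads behind each peak were not analysed here.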

Other observations

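The tested genes of the lipid lists held 59 pairs of 1 GM and 1 DM peak, of which 8 (13.6%) were past 1.5-fold, 3 higher and 5 lower in DM, against 25.0% of all pairs. These genes were chosen after their values were seen. Of the 8 pairs, 5 were in regulators of lipogenesis. The fold enrichment of a *SREBF2* peak was 1.74 in GM and 4.42 in DM, while a second *SREBF2* peak had 3.56 and 2.84. *PPARG* had 4.96 and 12.8. Its mRNA was scarce, at 1.34, 1.27 and 1.13 FPKM in GM and 0.481, 0.503 and 0.463 in DM. Whether the low input level in DM affects the enrichment of *PPARG* was not tested. *NR1H2*, a liver X receptor, had 6.45 and 4.16, and *SCAP*, the escort of SREBP, had 3.56 and 2.31. *PRKAA1*, a catalytic subunit of the kinase AMPK, had 4.36 and 2.48, while a second *PRKAA1* pair, not past 1.5-fold, had 1.92 and 2.52. The other pairs were in the phospholipid acyltransferase *LPCAT4* (28.3 and 8.52), the cytochrome b5 reductase *CYB5R3* (8.71 and 5.32) and the fatty acid transporter *SLC27A4* (1.60 and 3.79). None of the 7 pairs in sterol synthesis genes was past 1.5-fold. Each value is 1 number per group without an error.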
